A study of Mus musculus with 14 samples.

Results

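The genes described here encode alcohol dehydrogenases (Adh), aldehyde dehydrogenases (Aldh), retinol dehydrogenases (Rdh) and aldo-keto reductases of the Akr1 family. They were chosen by symbol, as the genes whose symbol begins with Adh, Aldh or Rdh and a number, or with Akr1, without Akr1d1. The rule for membership used no measured value, but earlier results of these data were known when it was set. There are 52 of them among the 20377 gene symbols measured, namely 5 Adh, 20 Aldh, 12 Rdh and 15 Akr1 genes. Levels were compared between 3 cell populations sorted from livers of C57BL/6 mice that had all eaten the bile duct toxin DDC at 0.1% for 5 to 8 weeks. The mice were chimeras in which mature hepatocytes carried a red fluorescent marker, mTomato. Hepatocyte-derived ductal cells (5 libraries) were the donor cells with the ductal surface antigen MIC1-1C3 and the marker, cholangiocyte-derived ductal cells (5 libraries) were the host cells with the antigen and without the marker, and both were sorted for low side scatter and for absence of CD11b, CD26, CD31 and CD45. Hepatocytes of DDC-treated mice (4 libraries) were the third population, and there was no uninjured group. Ductal cells with and without the marker thus also differ as donor and host, and an unmarked cell is called cholangiocyte-derived only for lack of the marker.

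Ethanol and other alcohols are oxidised to aldehydes by alcohol dehydrogenases, and the aldehydes to acids by aldehyde dehydrogenases. Vitamin A follows the same path, since retinol is oxidised to retinaldehyde by retinol dehydrogenases and by some alcohol dehydrogenases, and retinaldehyde to retinoic acid, the ligand of the retinoic acid receptors, by the Aldh1a enzymes. Aldo-keto reductases work with NADPH, mostly in the reducing direction, on aldehydes, sugars, bile acid precursors and steroids. Hepatocytes hold much of the body's capacity for these reactions.

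Values are RPKM, reads scaled to transcript length and library size, as deposited. Changes are differences of log2(RPKM + 1) with their standard error (SE) from limma, fitted on the 12638 genes that reached 1 RPKM in 4 libraries or more, with p-values adjusted by Benjamini-Hochberg over these genes, and a change is called at an adjusted p under 0.05. A ratio compares mean RPKM. Of the 52 genes, 42 passed the filter, and 33 of these were at or above 1 RPKM in all 14 libraries. Akr1b7, Akr1c18 and Rdh16 passed it through the libraries of 1 population. Adh7 and Akr1cl also reached 1 RPKM in 1 library of another population, but passed only with the hepatocyte and the hepatocyte-derived libraries, respectively. A difference in any of these genes follows in part from the filter. The 10 genes that did not pass were Adh6a, Akr1c21, Aldh1a3, Aldh1l2, Aldh3a1, Aldh3b2, Rdh1, Rdh8, Rdh12 and Rdh19, none of them above 0.89 RPKM in any library, and Rdh8 was listed at 0 in all. Depth, as estimated from the values, lay between 16100000 and 26900000 reads. These are sorted cells measured in bulk, so fewer cells of a type and less RNA per cell cannot be told apart.

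The sorted populations carried the markers of their names. Summed over 14 biliary markers the levels were 17386 to 20180 RPKM in hepatocyte-derived ductal cells, 21171 to 22742 in the cholangiocyte-derived ones, against 650.05 to 1440 in hepatocytes, and summed over 14 hepatocyte markers they were 6677 to 12542, 3754 to 5781 and 68247 to 89176 RPKM. Markers of other cells stood out most in 3 libraries. Summed stellate and fibroblast markers reached 439 and 510 RPKM in cholangiocyte-derived libraries 118 and 220 and 158 in hepatocyte library 118, and summed macrophage markers 1397 RPKM in hepatocyte library 118 against 29.99 to 40.5 in the other hepatocytes. The counts of called genes and the changes of the genes described library by library were therefore also computed without these 3 libraries. Hepatocyte-derived library 219 was low in macrophage markers, at 25.39 RPKM against 123.29 to 156.51 in the rest of its group.

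The enzymes as a group were lower in both kinds of ductal cell than in hepatocytes. Hepatocyte-derived ductal cells had 9 of the 42 tested genes higher and 28 lower than hepatocytes, where 66.2% of all tested genes were called higher and 14.8% lower (81% in either direction). Cholangiocyte-derived ductal cells had 7 higher and 30 lower than hepatocytes, beside 67.1% and 17.4% of all genes (84.4% in either direction). The median change of the tested enzymes was -1.10 in hepatocyte-derived and -1.72 in cholangiocyte-derived ductal cells against hepatocytes, while the medians over all tested genes were 0.67 and 0.76. These 2 comparisons share the hepatocyte libraries. Between the ductal populations, 20 enzymes were higher and 2 were lower in hepatocyte-derived than in cholangiocyte-derived cells, beside 15.1% and 21% of all genes, with medians of 0.45 for the enzymes and -0.03 for all genes. Rescaling the libraries by median ratios, which removes the shift of the median of all genes, gave 7 enzymes higher and 34 lower in each ductal population against hepatocytes. Among all called genes, the share called higher was 81.7% in hepatocyte-derived and 79.4% in cholangiocyte-derived ductal cells, 50.8% and 51.8% after median-ratio rescaling and 52.6% and 50.6% under quantile normalization. For the ductal populations against each other it was 41.9%, and 56.1% under quantile normalization. Without the 3 libraries with markers of other cells the counts were 9 and 26, 8 and 28, and 21 and 2 of 40 tested.

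Together the 52 genes made up 0.612 ± 0.114% of all RPKM in hepatocyte-derived ductal cells, 0.406 ± 0.0401% in the cholangiocyte-derived ones, against 1.498 ± 0.142% in hepatocytes (SD, n = 5, 5 and 4). The families differed in how far they stood apart. Adh genes summed to 579 ± 235, 186 ± 50.7 and 2584 ± 706 RPKM in these 3 populations, and Aldh genes to 1511 ± 263, 921 ± 111 and 3704 ± 433 RPKM. Rdh genes summed to 100.05 ± 11.8, 91.6 ± 10.2 and 799 ± 55.2 RPKM, and Akr1 genes to 760 ± 147, 708 ± 74.7 and 1928 ± 585 RPKM. The Adh and Aldh sums thus lay between those of the other populations in hepatocyte-derived ductal cells, while the Rdh and Akr1 sums of the ductal populations lay within 1 SD of each other. By the mean of log2(RPKM + 1), hepatocyte-derived ductal cells lay between the other populations in 29 of the 42 tested enzymes (69%, beside 60.7% of all genes), above both in 5 (11.9%, beside 31.2%) and below both in 8 (19%, beside 8.02%).

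**Figure D1:**
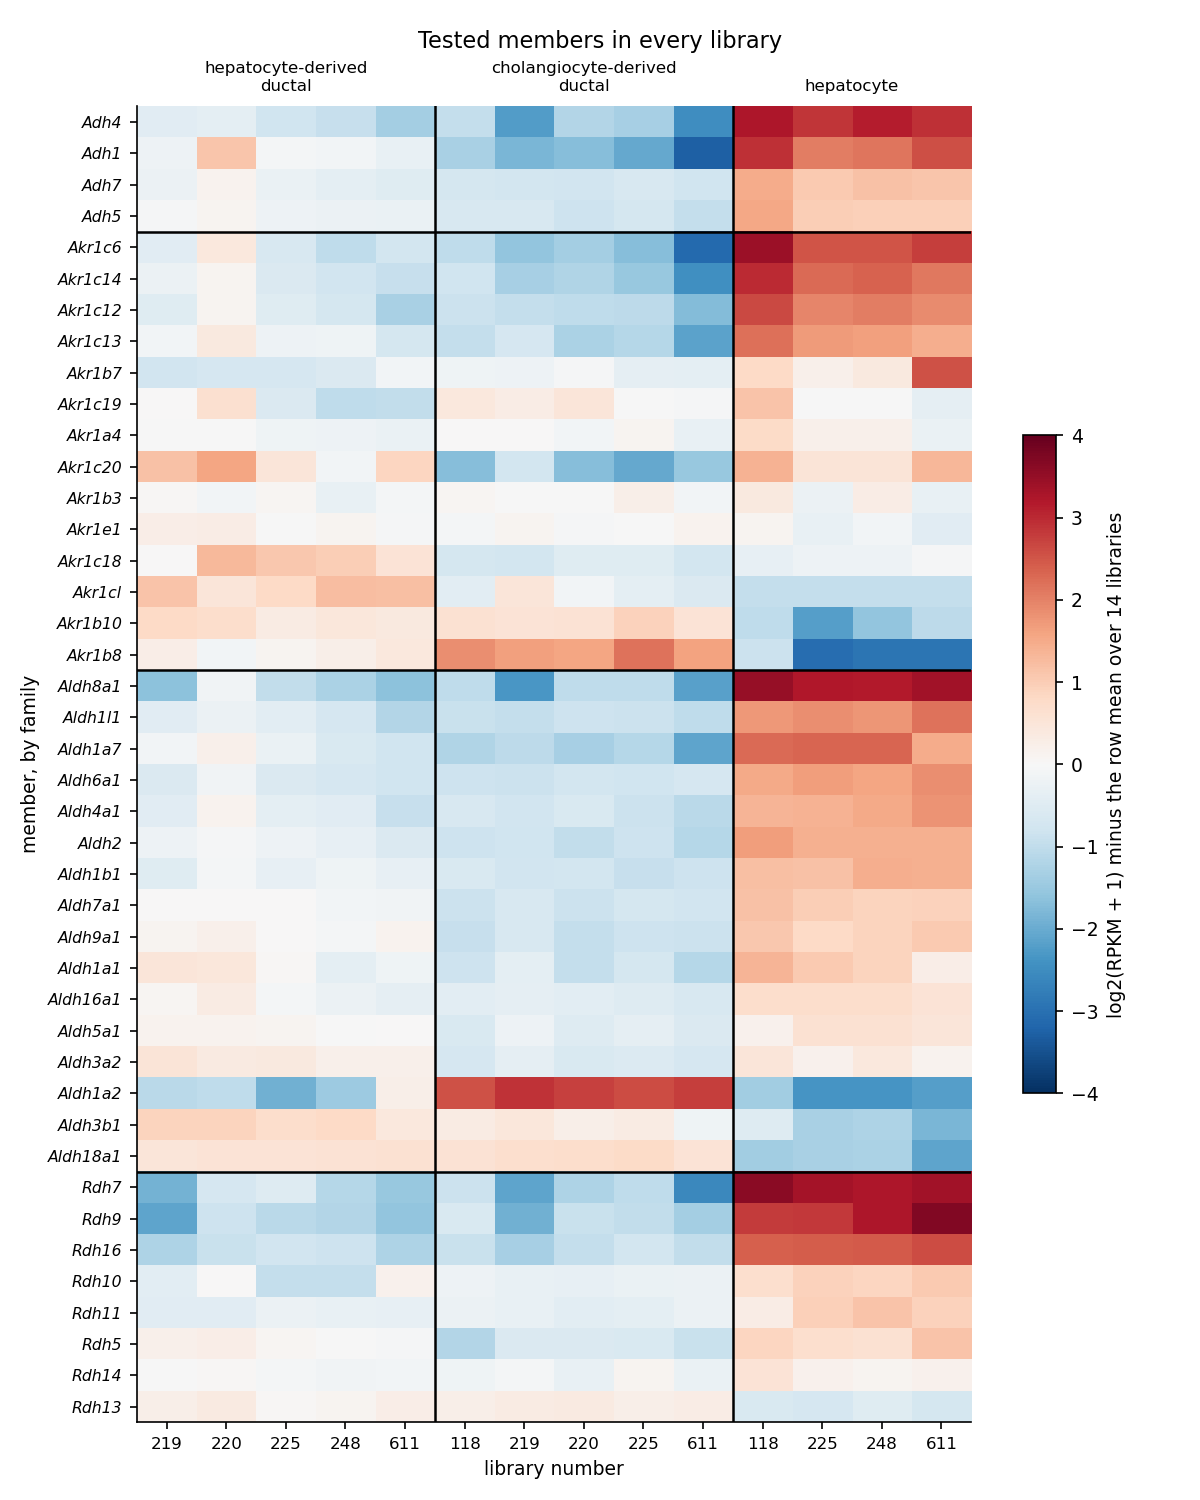
Tested enzymes (rows, by family and by their change in hepatocyte-derived ductal cells against hepatocytes) in the 14 libraries (columns, by library number), coloured by log2(RPKM + 1) minus the mean of the row. Most rows are highest in the 4 hepatocyte libraries, while Aldh1a2 is highest in the 5 cholangiocyte-derived libraries and Akr1b8, Akr1b10, Aldh18a1 and Aldh3b1 are lowest in hepatocytes.

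The alcohol dehydrogenases form a cluster on chromosome 3 (mm9), and all 4 tested members were lower in both ductal populations than in hepatocytes. All 4 were also higher in hepatocyte-derived than in cholangiocyte-derived cells. The shares of all tested genes called in these directions were 14.8%, 17.4% and 15.1%. Adh1 (NM_007409, chromosome 3, 137940609 to 137953655, plus strand), the class I enzyme that oxidises ethanol and retinol, was the most abundant. Its 250 bases before the transcription start (RefSeq, GRCm38.p6, chr3:138277335-138277584, plus strand) are shown because Adh1 was the most abundant of all the enzymes in hepatocytes.
Adh1: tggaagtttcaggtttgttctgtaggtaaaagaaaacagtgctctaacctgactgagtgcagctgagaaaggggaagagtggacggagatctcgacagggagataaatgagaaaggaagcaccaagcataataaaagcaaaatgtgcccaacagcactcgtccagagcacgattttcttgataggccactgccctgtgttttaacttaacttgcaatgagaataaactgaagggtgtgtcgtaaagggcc
These and the windows given further on were searched on both strands for TGANNNNGC, the core of the antioxidant response element, GGAATG, bound by TEAD factors, TTGCNNAA, bound by C/EBP factors, CAAAGTCCA, a motif of HNF4A, the HNF1 motif and the TATA box TATAAA. Capitals mark a match, and the Adh1 window held none. Of all 32851 windows of this length in the table, 35.2%, 12.6%, 9.56%, 0.384%, 0.0335% and 12.4% held these motifs in the order given. Among the 46 windows of the 41 enzymes found in the table the shares were 37%, 15.2%, 10.9%, 0%, 0% and 15.2%.

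Adh1 stood at 340.33, 845.71, 377.55, 369.16 and 324.3 RPKM in hepatocyte-derived ductal libraries 219, 220, 225, 248 and 611. It was at 159.16, 110.67, 119.84, 95.25 and 39.72 RPKM in cholangiocyte-derived libraries 118, 219, 220, 225 and 611, and at 3020.42, 1619.97, 1756.24 and 2381.08 RPKM in hepatocyte libraries 118, 225, 248 and 611. The 3 populations did not overlap, and library 220 was the highest hepatocyte-derived one by far. The log2 change against hepatocytes was -2.34 ± 0.37 (adjusted p = 3.54e-05) in hepatocyte-derived and -4.46 ± 0.37 (adjusted p = 3.07e-08) in cholangiocyte-derived ductal cells. Between the ductal populations Adh1 was 4.30-fold higher in hepatocyte-derived cells (2.12 ± 0.35, adjusted p = 2.13e-04), the largest called ratio among the 4 alcohol dehydrogenases. Library 220 also had the highest summed hepatocyte markers of its group, 12542 RPKM against 6677 to 9304 in the rest, and their part in the result was not tested. Without library 220 the ratio between the ductal populations was 3.36.

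Adh4 (chromosome 3, 138078461 to 138093856), the class II enzyme, showed the widest separation from hepatocytes in its family. It was at 7.68, 8.04, 5.89, 5.32 and 3.62 RPKM in hepatocyte-derived ductal cells, 5.15, 1.53, 4.28, 3.79 and 1.12 RPKM in the cholangiocyte-derived ones, against 111.35, 85.18, 104.33 and 89.71 RPKM in hepatocytes, in the library order given for Adh1. The ductal populations overlapped with each other and neither reached the hepatocytes. Adh4 was 15.98-fold lower in hepatocyte-derived ductal cells (-3.83 ± 0.29, adjusted p = 2.07e-08) and 30.8-fold lower in cholangiocyte-derived ductal cells (-4.67 ± 0.29, adjusted p = 1.63e-09) than in hepatocytes. The call between the ductal populations (0.85 ± 0.28, adjusted p = 0.0266) was lost without hepatocyte-derived library 219 or 220 or cholangiocyte-derived library 219 or 611 (adjusted p = 0.0665, 0.0675, 0.0684 and 0.0668).

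Adh5 (chromosome 3, 138106128 to 138118463), the glutathione-dependent formaldehyde dehydrogenase found in most tissues, moved least against hepatocytes. Its levels were 125.98, 141.43, 114.34, 112.1 and 108.95 RPKM in hepatocyte-derived ductal cells, 83.79, 83.31, 73.81, 80.12 and 66.71 in the cholangiocyte-derived ones, against 383.9, 259, 255.04 and 256.21 in hepatocytes. The populations did not overlap, with changes against hepatocytes of -1.24 ± 0.13 (adjusted p = 4.8e-07) and -1.86 ± 0.13 (adjusted p = 4.02e-09), and 0.63 ± 0.12 (adjusted p = 8.04e-04) between the ductal populations. Adh5 made up 22.3 ± 4.78% of the summed Adh RPKM in hepatocyte-derived and 44.04 ± 10.9% in cholangiocyte-derived ductal cells, against 11.4 ± 1.62% in hepatocytes. The class IV enzyme Adh7, low throughout, averaged 0.642, 0.164 and 3.47 RPKM in the 3 populations and was called in all 3 comparisons. It passed the filter only with the hepatocyte libraries.

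The second family in the vitamin A path, the retinol dehydrogenases, separated hepatocytes from ductal cells but hardly the ductal populations from each other. Of 8 tested members, 7 were lower and 1 was higher in each ductal population than in hepatocytes, and Rdh5 alone was called between the ductal populations. Of all tested genes, 14.8% and 17.4% were lower and 66.2% and 67.1% higher in the hepatocyte-derived and cholangiocyte-derived cells than in hepatocytes, and 36.2% were called between the ductal populations. Rdh7 (NM_017473, chromosome 10, 127321083 to 127325755, minus strand), a short-chain dehydrogenase that oxidises retinol and androgens in mouse liver, was the most abundant in hepatocytes. Its levels were 14.85, 35.71, 39.83, 25.46 and 19.47 RPKM in hepatocyte-derived ductal cells, 31.09, 12.41, 23.81, 27.93 and 8.67 in the cholangiocyte-derived ones, against 716.25, 580.15, 552.44 and 592.23 in hepatocytes. Every hepatocyte library was above every ductal library, and the ductal populations overlapped. The gene was 22.5-fold lower in hepatocyte-derived (-4.53 ± 0.35, adjusted p = 2.08e-08) and 29.4-fold lower in cholangiocyte-derived ductal cells (-4.95 ± 0.35, adjusted p = 5.36e-09) than in hepatocytes. The ductal populations differed by 0.42 ± 0.33 (adjusted p = 0.357).

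Rdh9 and Rdh16 lie on chromosome 10 within the same cluster and followed Rdh7. Rdh9 was at 0.19, 1.89, 1.4, 1.24 and 0.7 RPKM in hepatocyte-derived ductal cells, 2.3, 0.33, 1.72, 1.55 and 0.97 in the cholangiocyte-derived ones, against 34.41, 35.29, 46.96 and 64.99 in hepatocytes. The ductal libraries overlapped near 1 RPKM, and the changes against hepatocytes were -4.49 ± 0.29 (adjusted p = 4.07e-09) and -4.31 ± 0.29 (adjusted p = 3.75e-09). The Rdh9 value is uncertain, since 94% of its 36-base stretches also occur in other genes, Rdh16f1 among them, and how multi-mapping reads were handled is not given in the sources used here. For Rdh16 and Rdh7 these shares were 20.7% and 18.3%. Rdh16 averaged 0.292, 0.306 and 13.1 RPKM in the 3 populations, with changes against hepatocytes of -3.46 and -3.44, and passed the filter only through the hepatocyte libraries.

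Retinol dehydrogenases outside that cluster fell less. Rdh11 (chromosome 12, 80276538 to 80292806), a reductase of retinaldehyde, was at 27.61, 27.41, 31.65, 30.87 and 30.23 RPKM in hepatocyte-derived ductal cells, 32.04, 30.7, 28.26, 28.3 and 32.17 in the cholangiocyte-derived ones, against 46.72, 74.07, 84.2 and 72.04 in hepatocytes. The ductal libraries overlapped within a narrow range and lay below all hepatocytes, with changes of -1.17 ± 0.13 (adjusted p = 1.16e-06) and -1.14 ± 0.13 (adjusted p = 1.28e-06). Rdh11 held 29.8 ± 3.57% of the summed Rdh RPKM in hepatocyte-derived and 33.5 ± 4.98% in cholangiocyte-derived ductal cells, against 8.80 ± 2.48% in hepatocytes, in which Rdh7 held 76.3 ± 4.14%. Rdh10, which oxidises retinol in the embryo, averaged 8.21, 8.87 and 20.7 RPKM, and Rdh14, another reductase, 17.0, 16.1 and 21.5 RPKM. Rdh5, named for its work on cis-retinols, was at 7.65 ± 0.859 RPKM in hepatocyte-derived ductal cells against 3.80 ± 0.806 in cholangiocyte-derived ones (0.86 ± 0.13, adjusted p = 1.18e-04), and at 13.4 ± 2.40 in hepatocytes. It shares 18.2% of its 36-base stretches with the gene Bloc1s1. The mitochondrial member Rdh13 was higher in both ductal populations (0.81 and 0.91), a call lost in both under quantile normalization (-0.11 and -0.10, adjusted p = 0.189 and 0.21) and in hepatocyte-derived cells also after median-ratio rescaling (0.13, adjusted p = 0.11).

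**Figure D2:**
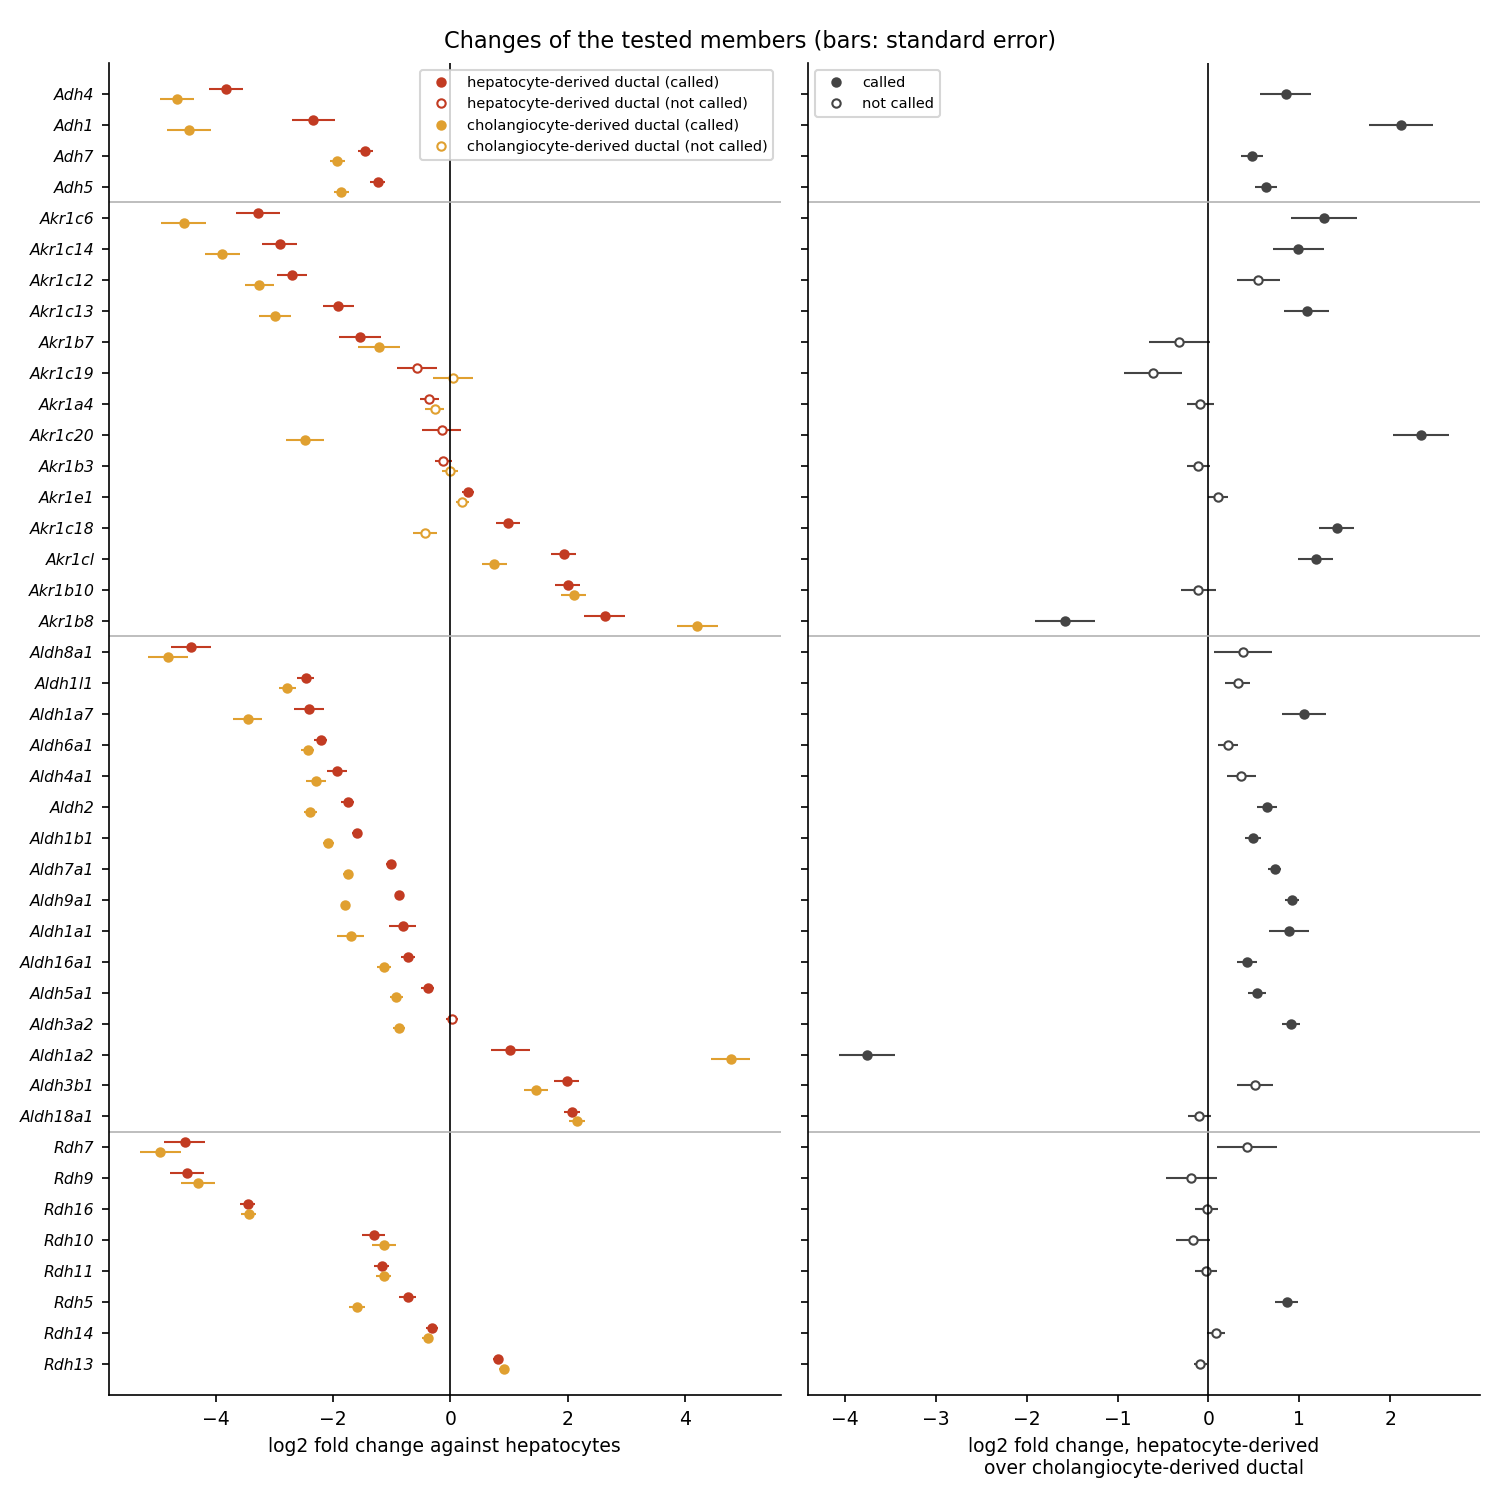
Log2 fold changes of the 42 tested enzymes with their standard errors, against hepatocytes for both ductal populations (left) and between the ductal populations (right), where filled points mark changes called at an adjusted p under 0.05. Cholangiocyte-derived points lie further left than hepatocyte-derived ones for all 4 Adh genes and most Aldh genes, while the points nearly coincide for Rdh9, Rdh16, Rdh10 and Rdh11, and Aldh1a2 and Akr1b8 are the 2 genes called lower in hepatocyte-derived than in cholangiocyte-derived cells.

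Retinaldehyde is turned into retinoic acid by Aldh1a1, Aldh1a2 and Aldh1a3, and 2 of these behaved in opposite ways between the ductal populations. Aldh1a2 (NM_009022, chromosome 9, 71063596 to 71144050, plus strand), the main retinoic acid producing enzyme of the early embryo, had the largest difference between the ductal populations of all tested enzymes. The 250 bases before its start (RefSeq, GRCm38.p6, chr9:71215539-71215788, plus strand) are shown for that reason, with capitals at the antioxidant response element core that the window holds 112 bases before the start.
Aldh1a2: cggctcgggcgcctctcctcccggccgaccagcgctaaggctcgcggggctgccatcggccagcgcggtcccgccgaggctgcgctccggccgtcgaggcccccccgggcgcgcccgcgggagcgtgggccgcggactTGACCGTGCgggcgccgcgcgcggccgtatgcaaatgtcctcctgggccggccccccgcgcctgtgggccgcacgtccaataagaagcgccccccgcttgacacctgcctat
The window was 77.6% G and C, against a median of 52.4% over all windows and 44.8% for Adh1. Among enzymes lower in both ductal populations than in hepatocytes, the median over the 25 genes with a window was 46.8%, and among those higher in both it was 54% over 6 genes.

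Aldh1a2 was at 1.46, 1.56, 0.36, 0.9 and 5.12 RPKM in hepatocyte-derived ductal libraries 219, 220, 225, 248 and 611. It was at 29.46, 37.33, 33.47, 31.11 and 34.53 RPKM in cholangiocyte-derived libraries 118, 219, 220, 225 and 611, and at 1.0, 0.02, 0.02 and 0.13 RPKM in hepatocyte libraries 118, 225, 248 and 611. All cholangiocyte-derived libraries lay in a narrow band above every other library, and hepatocyte library 118 overlapped with the hepatocyte-derived ductal cells. Hepatocyte-derived ductal cells had 17.6-fold less Aldh1a2 than cholangiocyte-derived ones (-3.76 ± 0.31, adjusted p = 3.54e-07), and 31.0-fold less without hepatocyte-derived library 611. In cholangiocyte-derived ductal cells the change against hepatocytes was 4.78 ± 0.33 (adjusted p = 4.83e-09), a ratio of 113 that became 586 without hepatocyte library 118, whose fellows were close to 0. The smaller rise in hepatocyte-derived ductal cells against hepatocytes (1.02 ± 0.33, adjusted p = 0.0113) was not called under quantile normalization (0.24, adjusted p = 0.504), and its ratio of 6.43 became 33.2 without hepatocyte library 118 and 3.66 without hepatocyte-derived library 611.

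Stellate cells, fibroblasts and mesothelial cells are known to hold Aldh1a2, and some of their markers also differed between the ductal populations. Of 9 tested stellate and fibroblast markers, 7 were lower and none was higher in hepatocyte-derived than in cholangiocyte-derived ductal cells (beside 21% and 15.1% of all genes). Their sums were 10.33 to 31.36 RPKM and 37.87 to 509.92 RPKM in these populations, and 4.95 to 158.08 RPKM in hepatocytes. Acta2 was listed at 0 in at least 1 hepatocyte-derived library, and Lrat, a defining gene of quiescent stellate cells, averaged 0.308, 1.21 and 0.635 RPKM. The cholangiocyte-derived library with the lowest stellate sum, 225, had 31.11 RPKM of Aldh1a2, and the one with the highest, 220, had 33.47. Hepatocyte library 118, with a stellate sum of 158.08 RPKM, had 1.0 RPKM of Aldh1a2. Of 7 mesothelial markers, a list added after the values were seen, the 3 tested ones (Msln, Gpm6a and Podxl) were lower in hepatocyte-derived than in cholangiocyte-derived ductal cells, with sums of 7.7 to 16.21, 127.63 to 187.61 and 0.48 to 5.94 RPKM in the 3 populations. The other 4 were too low to be tested. Wt1, a defining mesothelial factor, averaged 0.546, 0.496 and 0.0175 RPKM in the 3 populations, Upk3b 0.168, 1.04 and 0.102, Upk1b 0.036, 0.44 and 0.0175, and Lrrn4 0.08, 0.212 and 0.455 RPKM. The part of these cells in the Aldh1a2 result was not tested. Without the 3 libraries with markers of other cells, Aldh1a2 was lower in hepatocyte-derived than in cholangiocyte-derived ductal cells (-3.81 ± 0.36, adjusted p = 1.43e-05). The cholangiocyte-derived libraries left in that fit, 219, 225 and 611, still held mesothelial sums of 138.7, 187.61 and 127.63 RPKM. Their stellate sums were 88.77, 37.87 and 63.27 RPKM, so leaving out the 3 libraries did not remove these markers.

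**Figure D3:**
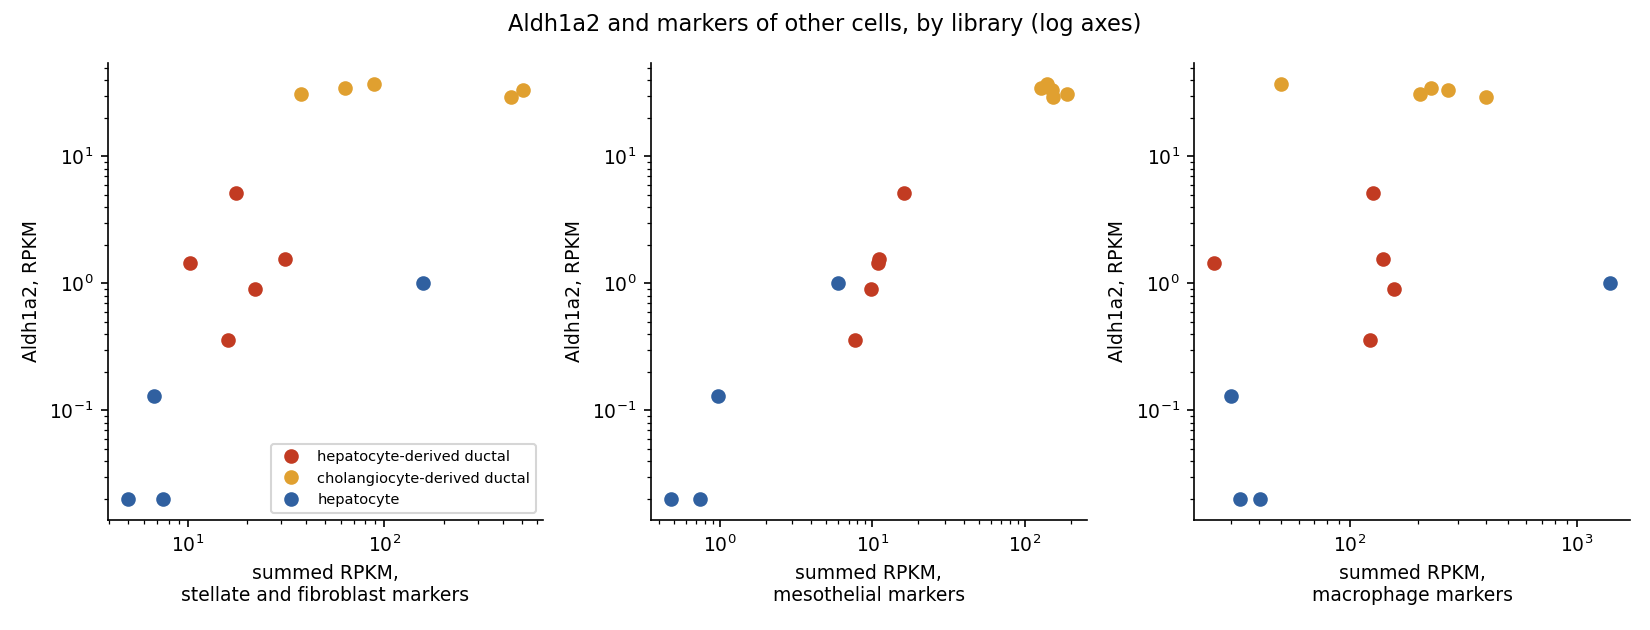
Aldh1a2 (vertical axis, RPKM, log scale) against the summed RPKM of stellate and fibroblast markers (left), mesothelial markers (middle) and macrophage markers (right) in the 14 libraries (horizontal axes, log scale). The 5 cholangiocyte-derived libraries hold 29.46 to 37.33 RPKM of Aldh1a2 over stellate sums of 37.87 to 509.92 RPKM, and mesothelial sums of 127.63 to 187.61 RPKM set them apart from all other libraries.

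Aldh1a1 (NM_013467, chromosome 19, 20676472 to 20717952, plus strand), the abundant retinaldehyde dehydrogenase of the adult liver, went the other way. It was at 857.9, 844.15, 643.18, 471.5 and 552.33 RPKM in hepatocyte-derived ductal cells, 347.27, 475.03, 317.01, 377.14 and 279.41 in the cholangiocyte-derived ones, against 1583.47, 1276.44, 1150.94 and 743.86 in hepatocytes. Hepatocyte-derived cells overlapped with both other populations, while cholangiocyte-derived cells and hepatocytes did not overlap. Aldh1a1 was 1.88-fold higher in hepatocyte-derived than in cholangiocyte-derived ductal cells (0.89 ± 0.22, adjusted p = 0.00507). Against hepatocytes it was lower in cholangiocyte-derived ductal cells (-1.70 ± 0.23, adjusted p = 7.9e-06) and, more weakly, in hepatocyte-derived ones (-0.81 ± 0.23, adjusted p = 0.00531), where quantile normalization ended the call and turned the sign (0.16, adjusted p = 0.52).

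Aldh1a2 made up 0.304 ± 0.348% of the summed RPKM of the 3 retinaldehyde dehydrogenases in hepatocyte-derived ductal cells and 8.65 ± 1.57% in cholangiocyte-derived ductal cells, against 0.0210 ± 0.0291% in hepatocytes. Aldh1a1 made up nearly all the rest, 99.7%, 91.3% and 99.97%, and Aldh1a3 did not exceed 0.38 RPKM in any library. Their sum was 676 ± 172 RPKM in hepatocyte-derived and 393 ± 75.5 RPKM in cholangiocyte-derived ductal cells, against 1189 ± 348 RPKM in hepatocytes. The Aldh1a1 paralog Aldh1a7 (chromosome 19, 20767443 to 20802046), which lies beside it and acts on other aldehydes, fell more steeply than Aldh1a1. Its levels were 71.15, 89.48, 63.87, 50.64 and 43.48 RPKM in hepatocyte-derived ductal cells, 32.93, 36.82, 30.37, 34.6 and 17.05 in the cholangiocyte-derived ones, against 374.73, 391.77, 390.4 and 215.51 in hepatocytes. The populations did not overlap, with changes against hepatocytes of -2.41 ± 0.25 (adjusted p = 5.86e-07) and -3.46 ± 0.25 (adjusted p = 8.69e-09) and 1.05 ± 0.24 (adjusted p = 0.00305) between the ductal populations. Aldh1a1 and Aldh1a7 share 11.5% and 11.4% of their 36-base stretches.

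Of the 16 tested aldehyde dehydrogenases, 12 were lower in hepatocyte-derived and 13 in cholangiocyte-derived ductal cells than in hepatocytes, beside 14.8% and 17.4% of all tested genes. Aldh2 (NM_009656, chromosome 5, 122017696 to 122043833, minus strand), the mitochondrial enzyme that clears acetaldehyde after ethanol, stood at 268.32, 297.89, 269.65, 248.19 and 206.86 RPKM in hepatocyte-derived ductal cells, 174.65, 178.05, 156.6, 175.29 and 140.23 in the cholangiocyte-derived ones, against 987.4, 829.46, 823.94 and 835.91 in hepatocytes. The populations were fully separated. Aldh2 was 3.37-fold lower in hepatocyte-derived (-1.75 ± 0.11, adjusted p = 3.62e-09) and 5.27-fold lower in cholangiocyte-derived ductal cells (-2.39 ± 0.11, adjusted p = 8.58e-11) than in hepatocytes, and 1.57-fold higher in hepatocyte-derived than in cholangiocyte-derived cells (0.64 ± 0.11, adjusted p = 2.51e-04). The related mitochondrial enzyme Aldh1b1 showed the same order, with means of 31.1, 21.8 and 95.3 RPKM.

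Aldh8a1 (chromosome 10, 21097106 to 21116384), an enzyme of tryptophan breakdown once described as a retinaldehyde dehydrogenase, was the Aldh gene furthest below hepatocytes. It was at 3.77, 12.43, 6.41, 5.09 and 3.77 RPKM in hepatocyte-derived ductal cells, 6.32, 1.96, 6.24, 6.22 and 2.25 in the cholangiocyte-derived ones, against 162.91, 135.85, 131.22 and 148.65 in hepatocytes. The ductal populations overlapped (0.38 ± 0.32, adjusted p = 0.392) far below the hepatocytes. The gene was 22.98-fold lower in hepatocyte-derived (-4.43 ± 0.34, adjusted p = 1.81e-08) and 31.5-fold lower in cholangiocyte-derived ductal cells (-4.81 ± 0.34, adjusted p = 4.96e-09) than in hepatocytes. Enzymes of folate (Aldh1l1, means of 57.0, 44.7 and 316 RPKM in the 3 populations), valine (Aldh6a1, 29.8, 25.2 and 141 RPKM) and proline breakdown (Aldh4a1, 32.4, 24.4 and 125 RPKM) were likewise lower in both ductal populations and not called between them. Aldh4a1 shares 45.7% of its 36-base stretches with the gene model Gm21969. Enzymes of lysine breakdown (Aldh7a1, 85.2, 50.9 and 174 RPKM), carnitine synthesis (Aldh9a1, 59.2, 30.8 and 109 RPKM) and GABA breakdown (Aldh5a1, 11.4, 7.59 and 15.3 RPKM), and Aldh16a1, took a middle position in hepatocyte-derived cells and were called in all 3 comparisons.

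Aldh3a2 (chromosome 11, 61058257 to 61080629), which oxidises long-chain fatty aldehydes, was chosen for description after its values were seen. It was at 151.2, 137.98, 138.7, 123.8 and 121.41 RPKM in hepatocyte-derived ductal cells, 66.1, 82.85, 69.09, 71.81 and 66.37 in the cholangiocyte-derived ones, against 150.65, 118.84, 142.02 and 116.38 in hepatocytes. Hepatocyte-derived ductal cells overlapped with hepatocytes throughout, and the cholangiocyte-derived cells lay below both. Its change in hepatocyte-derived ductal cells was 0.03 ± 0.10 against hepatocytes (adjusted p = 0.781) and 0.91 ± 0.10 against cholangiocyte-derived ductal cells (adjusted p = 3.39e-06). The first value depended on the scaling, at -0.76 after median-ratio rescaling (adjusted p = 2.63e-06) and 0.33 under quantile normalization (adjusted p = 0.00333), and the summed hepatocyte markers of the same libraries were 6677 to 12542 RPKM in hepatocyte-derived ductal cells against 68247 to 89176 in hepatocytes.

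**Figure D4:**
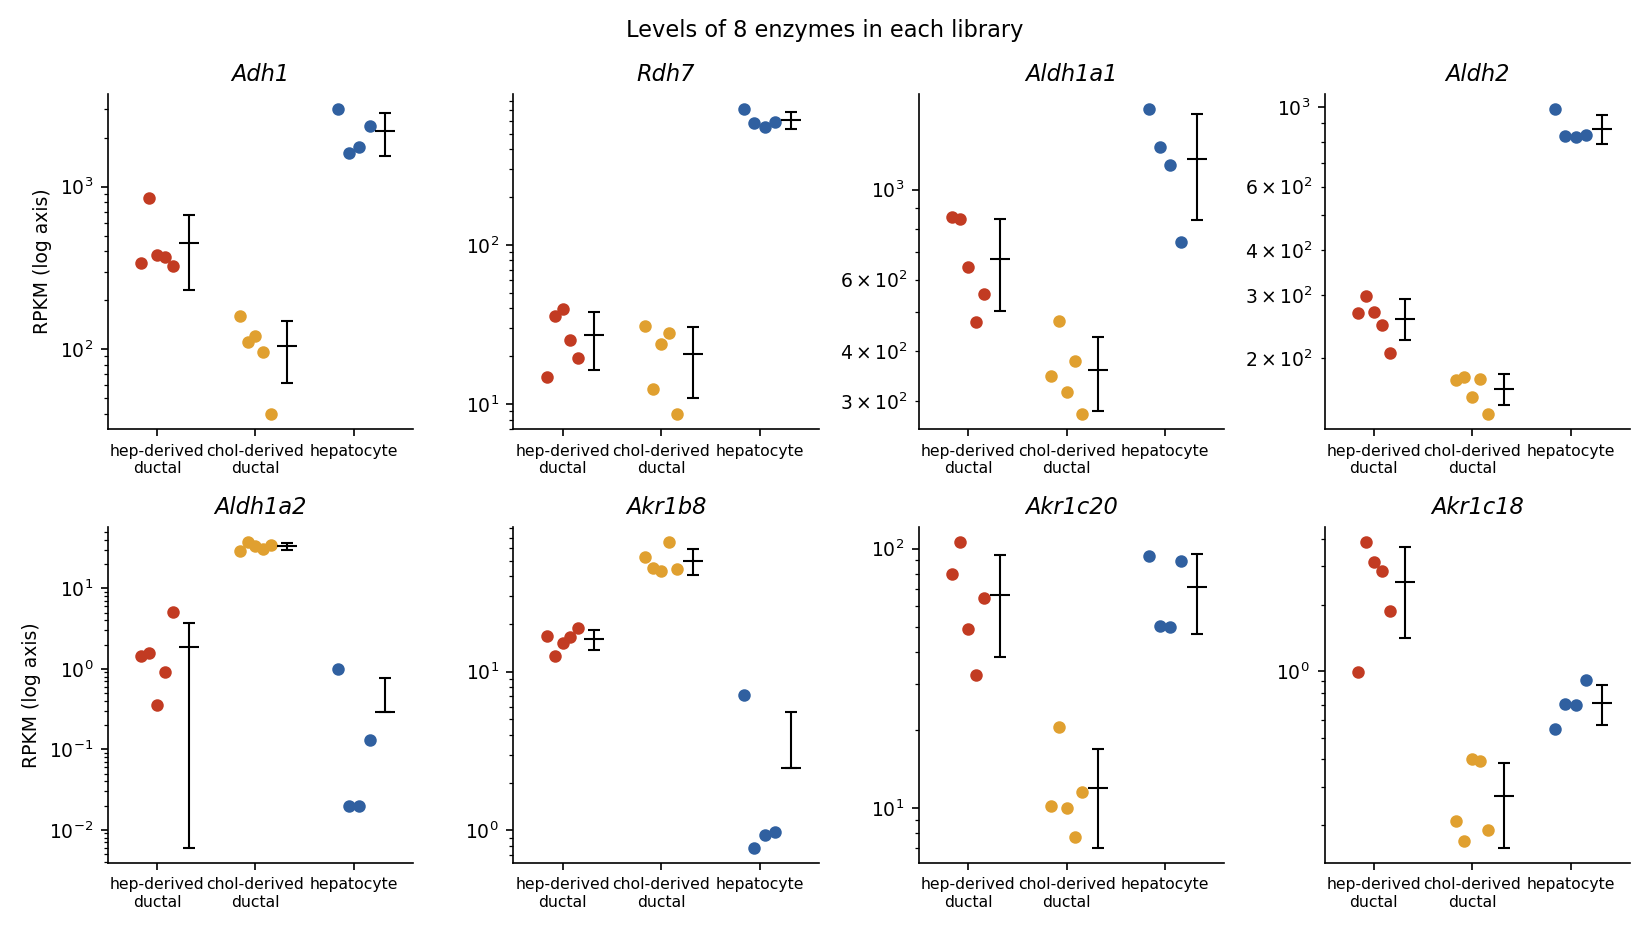
RPKM (log axes) of 8 enzymes in each library of hepatocyte-derived (hep-derived) ductal cells, cholangiocyte-derived (chol-derived) ductal cells and hepatocytes, with the mean and SD beside the points (the lower bar is left out where the SD exceeds the mean). Adh1, Aldh1a1 and Aldh2 are graded across the populations, Rdh7 sets hepatocytes apart, Aldh1a2 and Akr1b8 are highest in cholangiocyte-derived cells, and Akr1c20 and Akr1c18 are lowest in them.

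In 3 of the 16 tested aldehyde dehydrogenases both ductal populations exceeded hepatocytes, Aldh1a2 and 2 others, beside 66.2% and 67.1% of all tested genes called higher. Aldh18a1 (chromosome 19, 40624747 to 40662953), which makes the precursor of proline, was at 13.38, 13.88, 14.04, 14.23 and 14.45 RPKM in hepatocyte-derived ductal cells, 14.22, 15.11, 15.52, 16.32 and 14.04 in the cholangiocyte-derived ones, against 2.92, 3.13, 3.25 and 1.38 in hepatocytes. The ductal populations overlapped and stood above all hepatocytes, 5.24-fold in hepatocyte-derived (2.07 ± 0.14, adjusted p = 5.01e-09) and 5.63-fold in cholangiocyte-derived cells (2.16 ± 0.14, adjusted p = 1.9e-09). Proline synthesis (Aldh18a1) and proline breakdown (Aldh4a1) genes thus differed in direction. Aldh3b1 (chromosome 19, 3913491 to 3929716), which acts on lipid-derived aldehydes, was at 28.78, 28.93, 25.15, 26.71 and 20.44 RPKM in hepatocyte-derived ductal cells, 18.85, 21.08, 17.77, 18.95 and 13.3 in the cholangiocyte-derived ones, against 10.06, 5.51, 5.73 and 3.46 in hepatocytes. Both ductal populations lay above hepatocytes (1.98 ± 0.21, adjusted p = 5.59e-07, and 1.46 ± 0.21, adjusted p = 1.09e-05). Between them the change of 0.51 ± 0.20 was not called (adjusted p = 0.0544). It was called with the library number as a block (0.60 ± 0.12, adjusted p = 0.00394) and after either rescaling.

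The aldo-keto reductases were called in both directions. In hepatocyte-derived ductal cells 5 of 14 were higher and 5 lower than in hepatocytes, in cholangiocyte-derived ductal cells 3 were higher and 6 lower, and between the ductal populations 6 were higher and 1 was lower in hepatocyte-derived cells. The shares of all tested genes called higher and lower in these comparisons were 66.2% and 14.8%, 67.1% and 17.4%, and 15.1% and 21%. Median-ratio rescaling changed the first 2 splits to 4 and 10 and to 3 and 10, and the last stayed at 6 and 1. Akr1a4 (chromosome 4, 116309115 to 116324256), the general aldehyde reductase that also serves vitamin C synthesis in mice, had the highest level of its family in ductal cells. It was at 436.59, 431.44, 392.17, 377.35 and 363.03 RPKM in hepatocyte-derived ductal cells, 442.78, 447.11, 406.45, 473.28 and 359.46 in the cholangiocyte-derived ones, against 750.58, 499.39, 504.71 and 363.35 in hepatocytes. All populations overlapped, and no comparison was called (-0.36 ± 0.16, adjusted p = 0.0554, -0.27 ± 0.16, adjusted p = 0.133, and -0.09 ± 0.15, adjusted p = 0.708). Both changes against hepatocytes depended on the scaling, at -1.15 and -1.09 after median-ratio rescaling and 0.40 and 0.46 under quantile normalization, and both were called lower without hepatocyte library 611 (-0.52 and -0.44, adjusted p = 0.00374 and 0.0109). Akr1a4 held 53.6 ± 5.95% of the summed Akr1 RPKM in hepatocyte-derived and 60.2 ± 2.32% in cholangiocyte-derived ductal cells, against 27.6 ± 3.90% in hepatocytes.

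Of the 5 aldo-keto reductases called higher than in hepatocytes in hepatocyte-derived cells, 2 lie in the aldose reductase cluster on chromosome 6. Akr1b8 (NM_008012, 34304164 to 34318454, plus strand) and its neighbour Akr1b10 (NM_172398, 34334247 to 34346949, plus strand), aldose reductase-like enzymes that reduce lipid-derived aldehydes, lie next to each other on the same strand. Their windows of 250 bases before the start (RefSeq, GRCm38.p6, chr6:34353896-34354145 and chr6:34383997-34384246, plus strand) are given because these neighbours moved together against hepatocytes and apart between the ductal populations.
Akr1b8: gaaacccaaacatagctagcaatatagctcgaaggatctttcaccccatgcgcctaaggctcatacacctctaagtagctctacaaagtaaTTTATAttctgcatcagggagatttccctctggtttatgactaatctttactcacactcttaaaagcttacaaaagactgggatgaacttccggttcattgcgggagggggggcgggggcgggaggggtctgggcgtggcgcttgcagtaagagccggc
Akr1b10: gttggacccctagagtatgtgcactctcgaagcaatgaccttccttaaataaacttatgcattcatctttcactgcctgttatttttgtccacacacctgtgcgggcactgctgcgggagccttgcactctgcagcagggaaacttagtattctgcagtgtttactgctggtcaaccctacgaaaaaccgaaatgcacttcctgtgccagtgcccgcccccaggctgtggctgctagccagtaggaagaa
The capitals in Akr1b8 mark a TATA box motif on the opposite strand, and Akr1b10 held none of the motifs searched. The windows were 49.6% and 50.8% G and C.

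Akr1b8 was at 16.72, 12.65, 15.15, 16.55 and 18.96 RPKM in hepatocyte-derived ductal cells, 52.85, 45.27, 43.34, 65.44 and 44.08 in the cholangiocyte-derived ones, against 7.16, 0.78, 0.94 and 0.98 in hepatocytes. The populations did not overlap, and hepatocyte library 118, which carried markers of other cells, was the highest of its group. Against hepatocytes Akr1b8 was 6.49-fold higher in hepatocyte-derived (2.63 ± 0.35, adjusted p = 7.19e-06) and 20.4-fold higher in cholangiocyte-derived ductal cells (4.21 ± 0.35, adjusted p = 3.58e-08), and without hepatocyte library 118 the ratios were 17.8 and 55.8. Hepatocyte-derived ductal cells had 3.14-fold less than cholangiocyte-derived ones (-1.58 ± 0.33, adjusted p = 0.00161). Akr1b10 was at 14.61, 13.66, 10.18, 11.16 and 10.76 RPKM in hepatocyte-derived ductal cells, 12.58, 12.21, 12.45, 15.96 and 12 in the cholangiocyte-derived ones, against 3.46, 0.95, 1.98 and 3.31 in hepatocytes. Both ductal populations were above hepatocytes by similar amounts (2.0 ± 0.21, adjusted p = 4.56e-07, and 2.10 ± 0.21, adjusted p = 1.99e-07) and overlapped with each other (-0.11 ± 0.19, adjusted p = 0.711). Hepatocyte-derived cells thus held about equal Akr1b8 and Akr1b10, at means of 16.01 and 12.07 RPKM, while cholangiocyte-derived cells held 50.2 and 13.04 RPKM.

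Their neighbours on chromosome 6 did not share the rise. Akr1b3, the aldose reductase that makes sorbitol from glucose, averaged 3.53, 3.88 and 4.01 RPKM and was not called in any comparison, although 62.6% of its 36-base stretches occur in other genes, among them the predicted genes Gm6644 and Gm6736, and both rescalings called it lower in each ductal population (-0.67 to -1.21). Akr1b7, which in mice reduces lipid peroxidation products in the adrenal gland and vas deferens, was lower in both ductal populations (0.330 and 0.648 RPKM, against 3.87 in hepatocytes, of which library 611 had 10.38). This gene passed the filter only through the hepatocyte libraries. Akr1b8, Akr1b10 and Akr1b7 share 6.9% to 9.66% of their 36-base stretches with other genes.

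**Figure D5:**
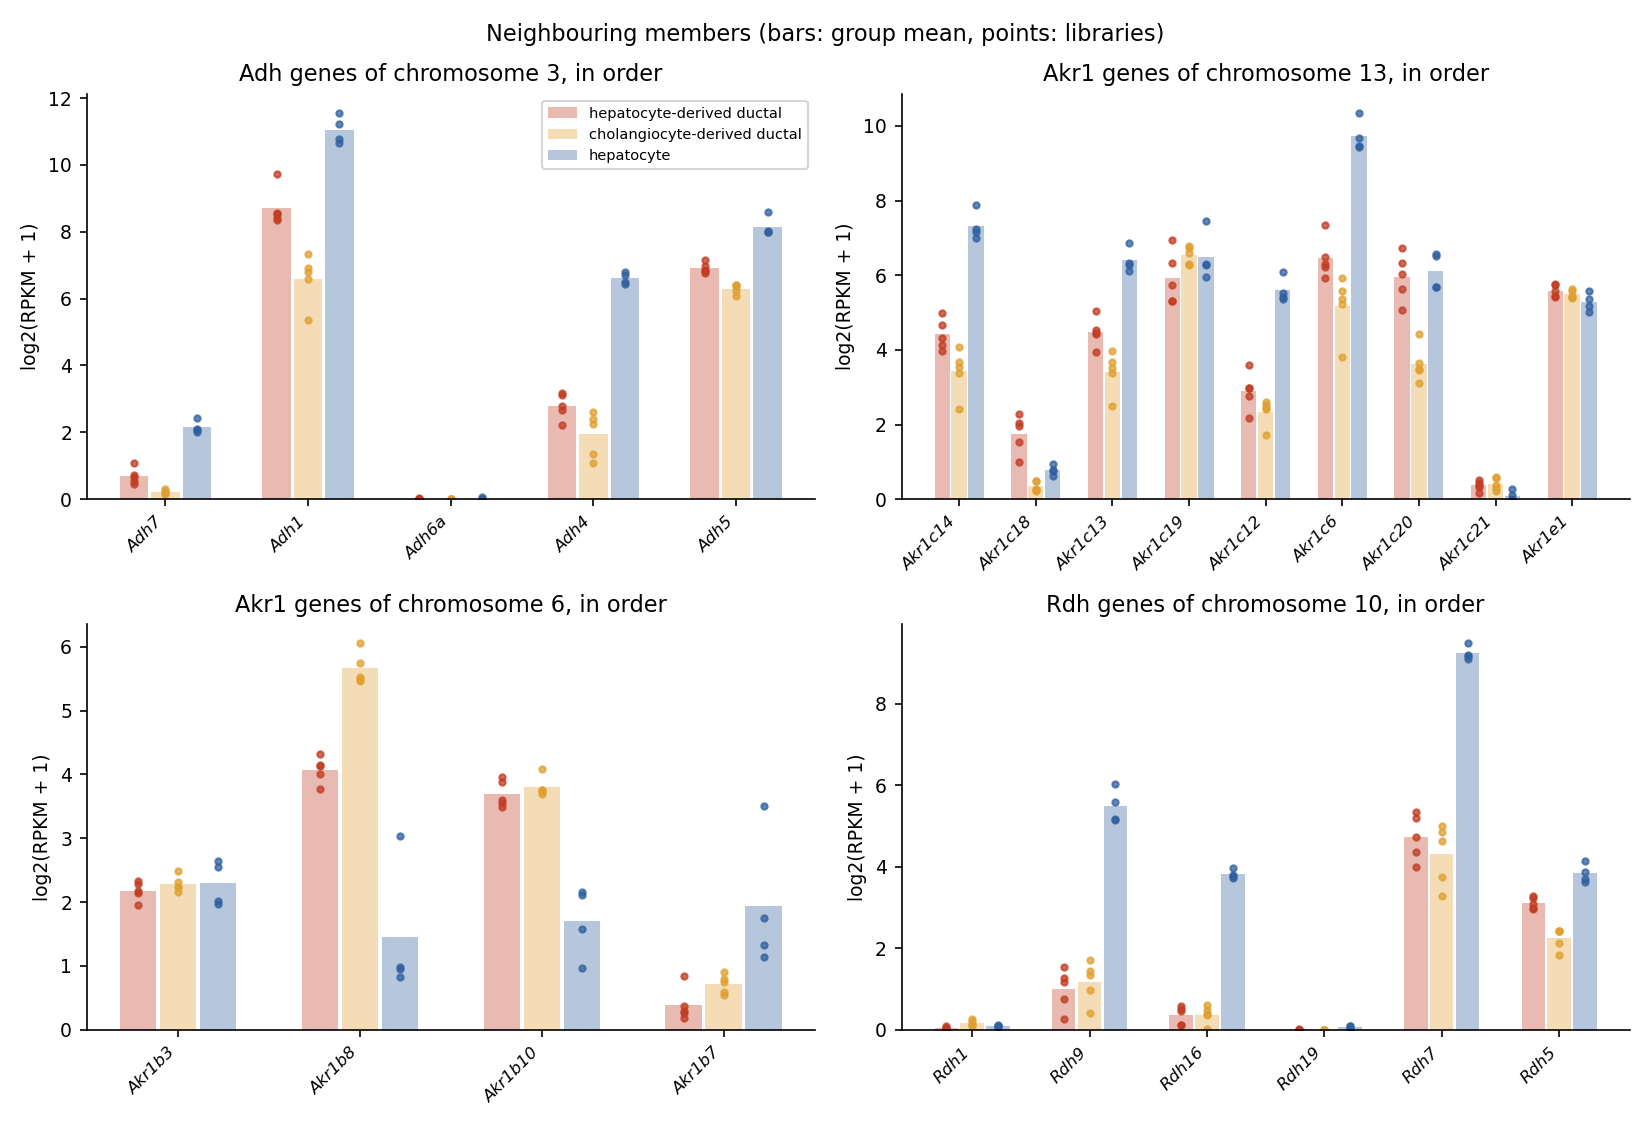
Enzymes that lie together on chromosomes 3, 13, 6 and 10, in chromosomal order, as log2(RPKM + 1) for hepatocyte-derived ductal cells, cholangiocyte-derived ductal cells and hepatocytes (bars, group mean; points, libraries). The tested Adh and Rdh genes shown are highest in hepatocytes, whereas Akr1b8 and Akr1b10 on chromosome 6 are lowest there and Akr1c18 and Akr1c20 on chromosome 13 are higher in hepatocyte-derived than in cholangiocyte-derived ductal cells.

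On chromosome 13 lies the Akr1c cluster, whose enzymes act on steroids and whose members differed most in pattern. Akr1c6 (NM_030611, chromosome 13, 4433589 to 4456776, plus strand), a 17-beta-hydroxysteroid dehydrogenase of liver, was at 88.85, 161.18, 77.22, 60.09 and 72.89 RPKM in hepatocyte-derived ductal cells, 59.88, 40.06, 46.59, 36.36 and 13.06 in the cholangiocyte-derived ones, against 1304.75, 694.21, 700.8 and 823.71 in hepatocytes. The 3 populations were separate, the first 2 by a narrow gap. Akr1c6 was 9.57-fold lower in hepatocyte-derived (-3.28 ± 0.38, adjusted p = 1.49e-06) and 22.5-fold lower in cholangiocyte-derived ductal cells (-4.55 ± 0.38, adjusted p = 3.24e-08) than in hepatocytes, and 2.35-fold higher in hepatocyte-derived than in cholangiocyte-derived cells (1.27 ± 0.36, adjusted p = 0.0113). Akr1c14 (4058837 to 4089668), a 3-alpha-hydroxysteroid dehydrogenase, was at 24.37, 30.73, 18.96, 16.41 and 14.65 RPKM in hepatocyte-derived ductal cells, 15.97, 10.7, 11.89, 9.44 and 4.37 in the cholangiocyte-derived ones, against 233.13, 143.05, 150.03 and 127.03 in hepatocytes. Here the ductal populations overlapped, with changes against hepatocytes of -2.91 ± 0.30 (adjusted p = 4.2e-07) and -3.89 ± 0.30 (adjusted p = 1.28e-08) and 0.99 ± 0.28 (adjusted p = 0.0123) between them. Akr1c12 and Akr1c13, which share 36.3% of their 36-base stretches and are therefore uncertain as single genes, were lower in both ductal populations than in hepatocytes, at -2.70 and -3.26 for Akr1c12 and -1.91 and -2.99 for Akr1c13. In the comparison of ductal populations Akr1c13 was called (1.08) and Akr1c12 was not (0.55, adjusted p = 0.0866), although it was with the library number as a block (0.66, adjusted p = 0.00396) and under quantile normalization (0.76, adjusted p = 0.0122).

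Akr1c20 (NM_054080, chromosome 13, 4506405 to 4522579, minus strand), next to Akr1c6, did not follow it. Its levels were 79.78, 105.82, 48.84, 32.56 and 64.46 RPKM in hepatocyte-derived ductal cells, 10.13, 20.46, 10.02, 7.71 and 11.53 in the cholangiocyte-derived ones, against 93.89, 50.51, 50.04 and 89.76 in hepatocytes. Hepatocyte-derived ductal cells covered the range of hepatocytes, and every cholangiocyte-derived library lay below both. The change in hepatocyte-derived ductal cells was -0.15 ± 0.33 against hepatocytes (adjusted p = 0.702) and 2.34 ± 0.31 against cholangiocyte-derived ductal cells (adjusted p = 3.46e-05), a 5.54-fold ratio. After median-ratio rescaling the first was called lower (-0.93, adjusted p = 0.0212). Akr1c20 and Akr1c6 share 4.83% and 5.73% of their 36-base stretches.

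Akr1c18 (NM_134066, chromosome 13, 4131873 to 4149877, minus strand), the 20-alpha-hydroxysteroid dehydrogenase that inactivates progesterone, was low but highest in hepatocyte-derived ductal cells. It was at 0.99, 3.85, 3.13, 2.86 and 1.87 RPKM there, 0.21, 0.17, 0.4, 0.39 and 0.19 in the cholangiocyte-derived ones, against 0.55, 0.71, 0.7 and 0.91 in hepatocytes. No 2 populations overlapped. It was 9.34-fold higher in hepatocyte-derived than in cholangiocyte-derived ductal cells (1.41 ± 0.19, adjusted p = 4.03e-05) and 3.54-fold higher than in hepatocytes (0.98 ± 0.20, adjusted p = 4.54e-04), but the gene passed the filter only through the hepatocyte-derived libraries, and quantile normalization ended the call against hepatocytes (-0.05, adjusted p = 0.841). Cholangiocyte-derived ductal cells were not called against hepatocytes (-0.43, adjusted p = 0.061), but were called lower under quantile normalization (-1.43, adjusted p = 1.29e-05). Akr1cl (chromosome 1, 65059660 to 65079322), an Akr1c-like gene chosen for description after its values were seen, was at 3.28, 1.71, 2.35, 3.61 and 3.44 RPKM in hepatocyte-derived ductal cells and 0.44, 1.74, 0.78, 0.48 and 0.29 in cholangiocyte-derived ductal cells, and was listed at 0 in all 4 hepatocyte libraries. The ductal populations overlapped by 1 library, and the gene passed the filter only with the hepatocyte-derived libraries. Akr1cl was higher in hepatocyte-derived than in cholangiocyte-derived ductal cells (1.18 ± 0.19, adjusted p = 2.27e-04), and the call of the cholangiocyte-derived cells against hepatocytes (0.75) was lost under quantile normalization (0.22, adjusted p = 0.273). Akr1c19 was not called in any comparison, at means of 66.4, 93.2 and 97.6 RPKM, and was called lower in hepatocyte-derived than in cholangiocyte-derived ductal cells without hepatocyte-derived library 220 (-0.87, adjusted p = 0.0315) and with library weights (-0.91, adjusted p = 0.0029). Against hepatocytes its change of -0.57 (adjusted p = 0.141) was called lower without that library (-0.83, adjusted p = 0.0221), after median-ratio rescaling (-1.35, adjusted p = 0.00269), with the library number as a block (-0.68, adjusted p = 0.00869) and with library weights (-0.55, adjusted p = 0.0361). The call of Akr1e1, which reduces anhydrofructose, in hepatocyte-derived ductal cells against hepatocytes (0.30, adjusted p = 0.0251) was lost without any of 4 single libraries and turned to -0.48 after median-ratio rescaling (adjusted p = 7.84e-04).

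Besides the 20 enzymes called higher in hepatocyte-derived than in cholangiocyte-derived ductal cells, 7 of 14 hepatocyte markers were higher and none lower. The shares of all tested genes were 15.1% and 21%. Against hepatocytes, all 14 markers were called lower in the hepatocyte-derived cells. Of the 20 enzymes, Akr1c20 and Aldh3a2 were not called in that comparison, and Akr1c18 and Akr1cl were called higher. After median-ratio rescaling Akr1c20 and Aldh3a2 were called lower there (-0.93 and -0.76). Akr1c18 and Akr1cl passed the filter only with the hepatocyte-derived libraries, so their calls follow in part from it. The Akr1c18 call was lost under quantile normalization (-0.05). The markers summed to 6677 to 12542 RPKM in hepatocyte-derived and 3754 to 5781 RPKM in cholangiocyte-derived ductal cells, and no marker was listed at 0 in either. The part of the markers in these results was not tested. Of the 28 enzymes lower in both ductal populations, 16 were also higher in hepatocyte-derived than in cholangiocyte-derived cells and 12 were not called between them, 6 of these 12 being Rdh genes. The matching split of all genes lower in both ductal populations was not computed, so this split cannot be read as particular to the enzymes.

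Genes that work beside these enzymes in the vitamin A path were divided. Of 26 further retinoid genes, 17 were tested, and in each ductal population 8 were higher and 9 lower than in hepatocytes. Of all tested genes, 66.2% were higher and 14.8% lower in hepatocyte-derived cells, and 67.1% and 17.4% in cholangiocyte-derived ones. The medians of the retinoid genes were -0.39 in hepatocyte-derived and -1.14 in cholangiocyte-derived cells, beside 0.67 and 0.76 for all tested genes. Retsat, which saturates retinol, was at 21.9 ± 1.16 RPKM in hepatocyte-derived and 23.9 ± 1.40 in cholangiocyte-derived ductal cells, against 75.6 ± 9.95 in hepatocytes (-1.73 ± 0.08, adjusted p = 2.49e-10, and -1.62 ± 0.08, adjusted p = 2.37e-10). The nuclear receptors divided. Rarb, a retinoic acid receptor, was higher in both ductal populations (14.1 ± 1.15 and 11.02 ± 0.860, against 3.90 ± 0.362 RPKM), as was Rxrb (29.9 ± 2.59 and 29.5 ± 1.84, against 15.9 ± 0.853 RPKM). Their partner receptor Rxrg was lower (1.01 ± 0.562 and 0.748 ± 0.0630, against 6.99 ± 0.219 RPKM). Between the ductal populations Rarb was higher in hepatocyte-derived cells (0.33 ± 0.08, adjusted p = 0.00393). Among genes named after their values were seen, the receptors Rara and Rarg were higher in both ductal populations (1.29 and 1.68 in hepatocyte-derived, 1.93 and 2.41 in cholangiocyte-derived cells) and lower in hepatocyte-derived than in cholangiocyte-derived cells (-0.65 and -0.72). Also named after their values were seen, the receptor Rxra (-1.42 and -1.73) and Cyp26a1, which breaks down retinoic acid (-2.54 and -2.95), were lower in both ductal populations than in hepatocytes.

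Other genes of carbonyl metabolism went largely with the enzymes described. Of 21 tested, 18 were lower and 1 was higher than in hepatocytes in hepatocyte-derived cells (beside 14.8% and 66.2% of all genes). In cholangiocyte-derived cells 19 were lower and 1 was higher (beside 17.4% and 67.1%). Between the ductal populations, 7 were higher and none lower in hepatocyte-derived cells (beside 15.1% and 21%). Among them the bile acid enzyme Akr1d1 was at 3.35 ± 1.09 and 3.03 ± 0.951 RPKM in the hepatocyte-derived and cholangiocyte-derived ductal cells, against 72.7 ± 32.4 in hepatocytes, and the alcohol dehydrogenase relative Adhfe1 at 5.47 ± 2.22 and 3.70 ± 0.825, against 43.1 ± 3.63. The carbonyl reductase Cbr1 (-1.59 and -1.63) and Sdr42e1 (-1.54 and -1.42) were also lower in both. Genes of the Nrf2 response, the antioxidant program to which Akr1b8 and Akr1b10 relatives are often counted, were mostly lower in ductal cells than in hepatocytes. In hepatocyte-derived cells 12 of 16 were lower and 1 was higher (beside 14.8% and 66.2% of all genes). For cholangiocyte-derived cells the counts were 12 and 2 (beside 17.4% and 67.1%). Nqo1, a quinone reductase, was at 4.19 ± 0.439 and 3.37 ± 0.779 RPKM, against 44.8 ± 9.17 in hepatocytes, and Srxn1, Ugdh and Mgst1 changed by -2.85, -2.97 and -2.30 in hepatocyte-derived and by -3.41, -3.53 and -2.44 in cholangiocyte-derived ductal cells. Akr1b8 and Akr1b10 did not go with the direction of most of that list.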

How the data were processed

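RNA of 14 sorted libraries was sequenced after TruSeq RNA v2 preparation, per the labels' protocols. The deposited RPKM values were made by the authors from reads aligned to mm9, with CASAVA and Bowtie 0.12.7 named in the submitters' processing notes; neither the counting program nor its handling of multi-mapping reads is stated in them. RPKM divides by the library total, so a few abundant transcripts lower the values of all others. Of 26005 transcript rows, the row with the highest mean was kept for each of 20377 symbols. Columns were matched to samples by title, and 2 columns whose number differs from the title (220 for 120) to their group only. The design text speaks of 3 hepatocyte samples where the table holds 4, all used.

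Depth was estimated from the steps of low RPKM values (16100000 to 26900000 reads). Genes reaching 1 RPKM in 4 or more libraries were fitted on log2(RPKM + 1) in limma 3.58.1 (R 4.3.3) as 1 model over the 3 groups with a mean-variance trend, and Benjamini-Hochberg adjusted over all 12638 genes. A fold change on this scale understates that of low genes. The fit was tested on simulated data with independent noise. These held neither a shift of most genes nor deviations shared between libraries, so the test does not cover the scaling or the library numbers. The labels do not say that libraries came from separate mice, so p-values measure the spread between these samples, which may be technical. The genes described in full were the 3 of each family with the highest group mean RPKM and, in each comparison, the 4 with the largest called change in each direction; genes chosen after seeing values are named as such. The members and the gene lists were chosen with earlier results of these data known. The deviations of same-numbered libraries from their group means correlated to varying degrees. Between hepatocyte-derived and cholangiocyte-derived ductal cells r was 0.797, 0.428, 0.212 and 0.424. Between cholangiocyte-derived ductal cells and hepatocytes it was 0.512, 0.133 and 0.225. Some differently numbered pairs correlated to a similar degree, such as hepatocyte-derived 220 with cholangiocyte-derived 118 (0.464) and cholangiocyte-derived 219 with hepatocyte 225 (0.458). The library number was also fitted as a block. Other alternatives were pseudocounts of 0.1 and 5, other filters, rescalings, library weights and leaving out libraries.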

Additional observations from a re-analysis of the deposited data

Results flagged for a closer look

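In 9 of 60 groups of 4 or 5 libraries examined, over the 20 genes described by rule, 1 library lay far from the rest by Dixon's criterion, where chance gives about 1 in 20. Hepatocyte library 118 was high in 4 genes. It had 383.9 RPKM of Adh5 (255.04 to 259.0 in the other hepatocytes), 7.16 of Akr1b8 (0.78 to 0.98), 1.0 of Aldh1a2 (0.02 to 0.13) and 987.4 of Aldh2 (823.94 to 835.91). Hepatocyte library 611 was low in Aldh18a1, at 1.38 RPKM (2.92 to 3.25), and in Aldh1a7, at 215.51 RPKM (374.73 to 391.77). Cholangiocyte-derived library 611 was also low in Aldh1a7, at 17.05 RPKM (30.37 to 36.82). Hepatocyte-derived library 220 had 845.71 RPKM of Adh1 (324.3 to 377.55), and cholangiocyte-derived library 225 had 15.96 RPKM of Akr1b10 (12.0 to 12.58).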

How the results depend on the processing

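Of 1707 alternative values for 69 single-gene results, 1647 kept their direction and side of the threshold, 28 passed it anew, 14 lost it and 18 changed sign. Over all genes, hepatocyte-derived ductal cells had 8363 higher and 1873 lower than hepatocytes, against 4725 and 4570 after median-ratio rescaling and 4596 and 4136 under quantile normalization. For cholangiocyte-derived ductal cells these were 8475 and 2195, against 5116 and 4755, and 4891 and 4769. Between the ductal populations, 1913 genes were higher, 3069 under quantile normalization and 2987 with library weights, which also gave 5 enzymes lower in place of 2. Leaving out single libraries gave 7 to 9 enzymes higher and 26 to 29 lower (8152 to 8682 and 1750 to 1884 of all genes) in hepatocyte-derived ductal cells against hepatocytes. It gave 7 to 8 and 28 to 31 (8260 to 8789 and 2061 to 2196) in cholangiocyte-derived ones, and 18 to 23 and 2 to 3 (1603 to 2385 and 2299 to 3296) between the ductal populations. Among the genes described library by library and Akr1e1, signs changed in hepatocyte-derived ductal cells against hepatocytes under quantile normalization for Akr1a4 (0.40), Akr1c18 (-0.05) and Aldh1a1 (0.16), and after median-ratio rescaling for Aldh3a2 (-0.76) and Akr1e1 (-0.48). Aldh3a2 also changed sign with the replicate block (-0.01) and, in a range of -0.02 to 0.10 over single libraries left out, without hepatocyte-derived 219 or 1 of hepatocyte 225 and 611. Akr1c20 did so without hepatocyte-derived 248 (0.08) or hepatocyte 118 (0.01), in a range of -0.34 to 0.08, and without the 3 libraries with markers of other cells (0.01). In cholangiocyte-derived ductal cells against hepatocytes, Akr1a4 changed sign under quantile normalization (0.46) and Akr1e1 under it (-0.04) and after rescaling (-0.61). Outside these genes, Rdh13 changed sign under quantile normalization in both ductal populations (-0.11 in hepatocyte-derived and -0.10 in cholangiocyte-derived cells). Between the ductal populations, Rdh11 changed sign with library weights (0.03) and Rdh9 under quantile normalization (0.14) and without the 3 libraries (0.08). The causes were not tested. With the library number as a block, 22 enzymes were higher and 2 lower between the ductal populations and 7 higher and 30 lower in cholangiocyte-derived ductal cells against hepatocytes. Same-numbered libraries of hepatocyte-derived ductal cells and hepatocytes correlated weakly (r = 0.129, 0.0208 and 0.193), and not every library correlated best with its own number. The block gave 8 higher and 29 lower there. RPKM values have 2 decimals, which limits genes near 0.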
